A study of Homo sapiens with 6 samples.

Results

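A group of 7 genes that feed into or modulate cyclic AMP production was followed in MDA-MB-231 cells, with and without BRL-50481, a PDE7A inhibitor. They are the adenosine receptor genes ADORA2B and ADORA1, the prostaglandin E2 receptor genes PTGER2 and PTGER4, the prostaglandin synthesis genes PTGS2 and PTGES, and the G protein regulator RGS2. The genes were taken by symbol from a fixed list of 7, all 7 were among the 15651 genes of the deposited table, and all 7 passed the filter on low values that kept 15246 genes for testing. MDA-MB-231 is an established human triple-negative breast cancer cell line, and 1 line is the only model here. RNA was sequenced in 6 libraries, 3 from cells given DMSO, the solvent, and 3 from cells given BRL-50481. The protocol text of the labels states a BRL-50481 treatment of 50 μM for 72 h, whereas the treatment tag of the same libraries states 5 μM and 48 h, so dose and time are uncertain to this extent. The labels describe oligo-dT selection and the series record ribosomal RNA depletion. The labels number the libraries of each group 1 to 3 and the series record calls them biological replicates.

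Cyclic AMP is made by adenylyl cyclases, which the G protein alpha subunit Gs stimulates and the subunit Gi inhibits, and phosphodiesterases such as PDE7A break it down. Adenosine reaches this pathway through the A2B receptor, which couples to Gs, and the A1 receptor, which couples to Gi. Prostaglandin E2 is formed from arachidonic acid in consecutive steps, in which the cyclooxygenase encoded by PTGS2 makes prostaglandin H2 and the microsomal synthase encoded by PTGES converts it. It acts in part through the Gs-coupled receptors EP2 (PTGER2) and EP4 (PTGER4). RGS2 speeds the shut-off of G protein alpha subunits, above all of the Gq class, and can also lower adenylyl cyclase activity. PTGS2 and RGS2 are both known as genes that cyclic AMP can induce through the transcription factor CREB.

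The promoters were inspected for the CREB recognition sequence as a shared feature that did not choose the genes. RefSeq promoter windows (GRCh38.p14, 250 bases before to 50 bases after the transcription start) were on hand for all 7 genes, a single window each. The start is that of RefSeq and can differ from the GENCODE gene coordinates given below. The windows of PTGS2 and ADORA1 lie inside those coordinates, and the start used for PTGER2 lies a few bases inside them. Other starts of these genes were not inspected. The full palindromic cyclic AMP response element, TGACGTCA, was in 0 of the 7 windows, against 1.85% of all 35116 windows. Its core TGACG, searched on both strands and contained in each full element, was in 4 of the 7 windows, against 24.55% of all windows and 30.45% of the 16253 windows of genes in the deposited table. PTGS2 and PTGER2 were higher after treatment and ADORA2B and RGS2 were lower, so the genes with a core moved in both directions. The 250 bases before the start of these 4 genes are shown, 5′ to 3′, because they allow genes of opposite direction to be compared, with each core in capitals.
PTGS2, chr1:186680424-186680673, strand −: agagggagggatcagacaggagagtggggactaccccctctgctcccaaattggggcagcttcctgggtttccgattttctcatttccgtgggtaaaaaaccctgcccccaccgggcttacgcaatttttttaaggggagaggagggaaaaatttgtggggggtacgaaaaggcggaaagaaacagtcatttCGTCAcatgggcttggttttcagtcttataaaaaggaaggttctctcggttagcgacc
PTGER2, chr14:52314062-52314311, strand +: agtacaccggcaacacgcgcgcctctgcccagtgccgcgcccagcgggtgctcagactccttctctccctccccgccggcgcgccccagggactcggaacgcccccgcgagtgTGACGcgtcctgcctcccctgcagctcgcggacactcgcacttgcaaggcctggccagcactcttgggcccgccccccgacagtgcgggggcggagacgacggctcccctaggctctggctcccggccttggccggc
ADORA2B, chr17:15944880-15945129, strand +: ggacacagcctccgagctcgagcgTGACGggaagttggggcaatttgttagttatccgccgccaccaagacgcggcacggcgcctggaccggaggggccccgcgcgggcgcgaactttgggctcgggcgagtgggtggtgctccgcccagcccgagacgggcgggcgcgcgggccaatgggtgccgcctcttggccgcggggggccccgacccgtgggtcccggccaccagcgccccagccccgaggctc
RGS2, chr1:192808789-192809038, strand +: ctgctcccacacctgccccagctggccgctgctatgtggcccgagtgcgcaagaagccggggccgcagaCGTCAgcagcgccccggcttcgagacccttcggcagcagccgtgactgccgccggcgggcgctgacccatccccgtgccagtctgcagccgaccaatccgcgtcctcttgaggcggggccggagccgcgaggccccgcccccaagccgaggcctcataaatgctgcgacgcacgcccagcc
In PTGS2 the first base of the core printed lies 58 bases before the start, and a further core lies 24 bases after the start base. The core is 181 bases before the start in RGS2, 137 in PTGER2 and 226 in ADORA2B. The windows of PTGER4, PTGES and ADORA1 hold no such letters, which says nothing about CREB at these genes. GC content of the 300-base windows ran from 50.7% in PTGS2 to 75.7% in ADORA2B.

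The libraries held 30750573 to 33446984 reads on genes, and the deposited values are read counts divided by a size factor per library (normalized counts). For genes with a mean of at least 50, the spread around the group mean (SD on the log2 scale) was widest in DMSO replicate 1, at 0.141, and 0.0791 to 0.0832 in the BRL-50481 libraries. Of the markers listed for the line, all 8 were measured, among them VIM (58840 ± 2498 normalized counts in DMSO) and CD44 (31414 ± 413, SD, n = 3), while SPARC was low (13.28 to 14.88 in the DMSO libraries). Of the 8, 7 were higher after treatment and 1 lower, with summed normalized counts of 168124.9 to 175226.1 for DMSO and 220853.3 to 224170.7 for treated libraries. The estrogen receptor gene ESR1 was not analysed here, and the progesterone receptor gene PGR was at 1.67 ± 1.52 normalized counts in DMSO and did not pass the filter. Marker genes of other cell types moved with treatment as well. Of all genes tested, 58.7% passed at an adjusted p-value under 0.05, with 28.9% higher and 29.8% lower. The counts of each marker set are to be read against these shares. Of 2 leukocyte markers tested, CD68 and LYZ, both were higher, with summed normalized counts between 3356.7 and 3800.8 for the DMSO libraries and between 4904.7 and 5160.4 after treatment, mostly from CD68, whereas PTPRC and CD3E were not analysed here. Of 4 fibroblast markers 2 were higher (sums 601.6 to 656.3 and 731.9 to 841.1), and of 3 endothelial markers 2 were higher and 1 lower (759.2 to 931.7 and 738.6 to 873.3). Of 5 luminal markers 3 were higher and 2 lower (2602.7 to 2800.0 and 2958.2 to 3080.2). The part of such markers in the results for the 7 genes was not tested. The mRNA of PDE7A, the target of the inhibitor, was lower after treatment, with 406 ± 2.06 normalized counts for DMSO against 298 ± 40.6 (log2 fold change −0.455, adjusted p = 0.00199).

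At an adjusted p-value under 0.05, 3 of the 7 genes passed upward after BRL-50481 and 2 downward. PTGS2, PTGER2 and PTGES rose, ADORA2B and RGS2 fell, and neither PTGER4 nor ADORA1 passed the test. Over all genes tested, 58.7% passed, with 28.9% higher and 29.8% lower. The count of 5 of 7 is to be read against that share, with the limit that the 7 genes were chosen with earlier results of these data known. The same 5 genes had no overlap between the libraries of the groups, which was so for 64.2% of all genes. Without DMSO replicate 1, the library with the widest spread, the same 5 genes passed, with log2 fold changes of 1.271 for PTGS2, 0.724 for PTGER2, 0.251 for PTGES, −0.673 for ADORA2B and −0.810 for RGS2. The median log2 fold change was 0.083 over the 7 genes and 0.015 over all genes. In a bulk sample, a change in the number of cells that express a gene and a change of RNA per cell cannot be told apart. Unless an alternative setting is named, adjusted p-values are from limma with Benjamini-Hochberg adjustment over 15246 genes. For single values, 3 libraries against 3 allow no exact permutation p-value below 0.1.

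**Figure D1:**
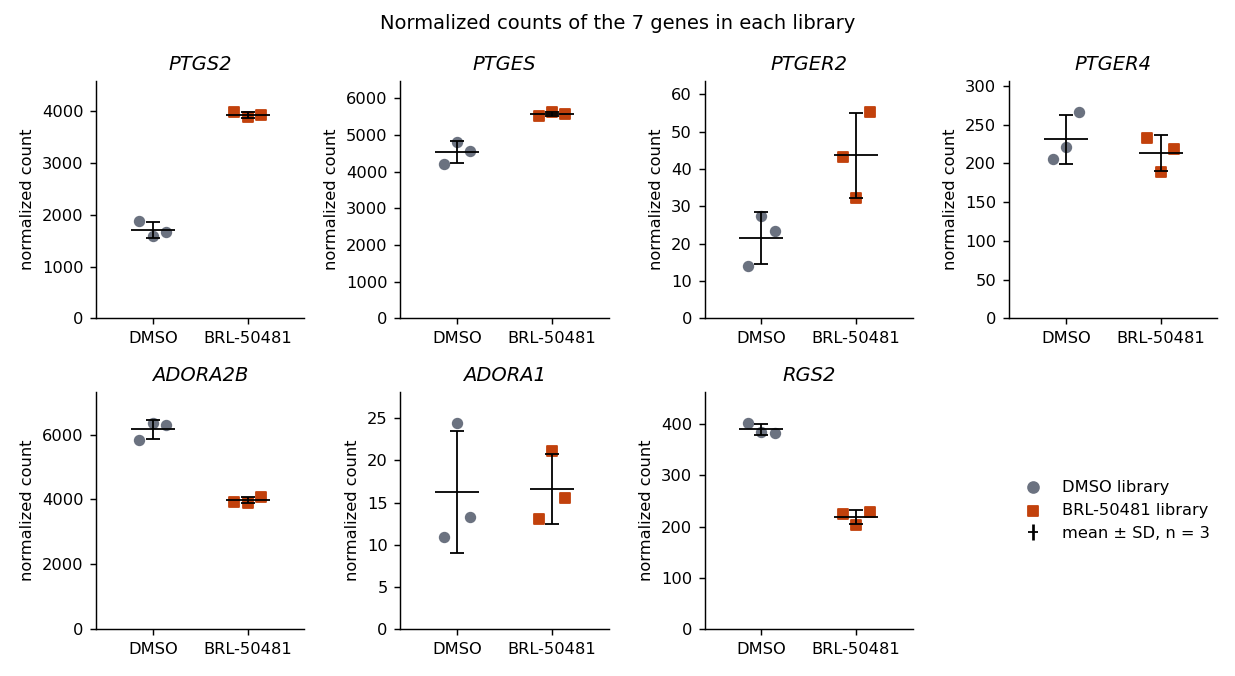
Normalized counts (vertical axes, each from 0) of the 7 genes in the DMSO libraries (grey circles) and BRL-50481 libraries (orange squares), with the mean and SD (n = 3) in black. The groups are apart for PTGS2, PTGES, PTGER2, ADORA2B and RGS2, and overlap for PTGER4 and ADORA1.

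The cyclooxygenase gene PTGS2 (chromosome 1, 186671791 to 186680922, minus strand, 10 exons; GENCODE 44, hg38) had the largest fold change of the 7 with all libraries, although without DMSO replicate 2 the log2 fold change was 1.190 for PTGER2 and 1.147 for PTGS2. It stood at 1879.3, 1582.0 and 1676.2 normalized counts in DMSO replicates 1 to 3 and rose to 3989.6, 3883.0 and 3923.6 in BRL-50481 replicates 1 to 3. The lowest treated library held 2.07 times the value of the highest control, and the treated libraries differed less among themselves (coefficient of variation 1.37%) than the controls did (8.87%). The log2 fold change was 1.202 (standard error 0.0635, 95% interval 1.065 to 1.34, adjusted p = 1.07e-08), a 2.30-fold rise. It ranked 603rd of all genes tested by rise and was one of the 5.06% of genes that both passed the test and were higher by over 1 on the log2 scale. The RNA gene PACERR overlaps its exons on the opposite strand, and reads were assigned by strand. It was listed at 0 to 4.96 normalized counts. The pattern over the 6 libraries most like that of PTGS2 was that of MAP4K4, a kinase gene, with a root mean square difference of 0.0201 on the centred log2 scale, followed by FAM129A (0.0502), among 12251 genes with a mean of at least 50. MAP4K4 went from 11200 ± 867 to 26300 ± 491 normalized counts.

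PTGES (chromosome 9, 129738331 to 129753042, minus strand, 3 exons), which encodes the inducible synthase that acts after cyclooxygenase, rose by less. Its normalized counts were 4214.9, 4807.8 and 4553.7 in DMSO, and treatment gave 5512.7, 5628.6 and 5559.8. Each treated library lay above each control. The change on the log2 scale was 0.301 (standard error 0.0540, 95% interval 0.184 to 0.417, adjusted p = 0.000348), a rise of 23.2%. The median absolute change over all genes was 0.332, so the rise of PTGES was of a size common in this comparison. ABHD14B (0.0212) and ZNF345 (0.0192), a gene that did not pass the test itself (adjusted p = 0.115), were nearest to it in pattern.

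PTGS2 had the larger fold change, and the ratio of the pair within a library, from which the size factor drops out, compares them directly. PTGES reads outnumbered PTGS2 reads by 2.24, 3.04 and 2.72 times in the DMSO libraries and by 1.38, 1.45 and 1.42 times in the BRL-50481 libraries. With 1 added to each count, the log2 ratio went from 1.403 ± 0.222 to 0.502 ± 0.0345 (SD, n = 3 each), a difference of −0.902 with no overlap between groups (two-sided exact permutation test, p = 0.1).

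The receptors for prostaglandin E2 were far less abundant than the synthesis genes. PTGER2 (chromosome 14, 52314305 to 52328598, plus strand, 2 exons) was at 13.89, 27.43 and 23.49 normalized counts in DMSO, against 43.29, 32.23 and 55.25 after treatment. These values rest on 14 to 57 reads a library, and the closest libraries of the groups, BRL-50481 replicate 2 and DMSO replicate 2, were 1.18-fold apart. The log2 fold change was 0.999 (standard error 0.297, 95% interval 0.357 to 1.64, adjusted p = 0.0109). Without BRL-50481 replicate 3 it was 0.815 with an adjusted p of 0.0608 and so did not pass, and without DMSO replicate 1 it was 0.724 (adjusted p = 0.0269). Its adjusted p-value ran from 0.00483 to 0.0608 over 17 alternatives and passed in 16. PTGER2 resembled the non-coding RNA gene LINC01061 (0.197) and LOC100506100 (0.210) most.

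PTGER4 (chromosome 5, 40679915 to 40693735, plus strand, 3 exons), the more abundant of the pair, did not pass the test. Its normalized counts were 205.39, 221.38 and 266.60 in DMSO and 233.56, 188.36 and 219.06 in BRL-50481, with the treated values inside or below the control range. On the log2 scale the change was −0.110 (standard error 0.125, adjusted p = 0.471), and its 95% interval of −0.381 to 0.161 leaves room for changes of up to 1.12-fold upward and 0.768-fold downward. CDC37L1 and TMA7 were nearest in pattern (0.0504 and 0.0519). PTGER4 exceeded PTGER2 by 14.8, 8.07 and 11.3 times in the DMSO libraries and by 5.40, 5.84 and 3.96 times in the BRL-50481 libraries. The groups did not overlap in this ratio, whose log2 value differed by −1.109, from 3.403 ± 0.415 to 2.29 ± 0.288 (SD, n = 3 each; two-sided exact permutation test, p = 0.1).

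**Figure D2:**
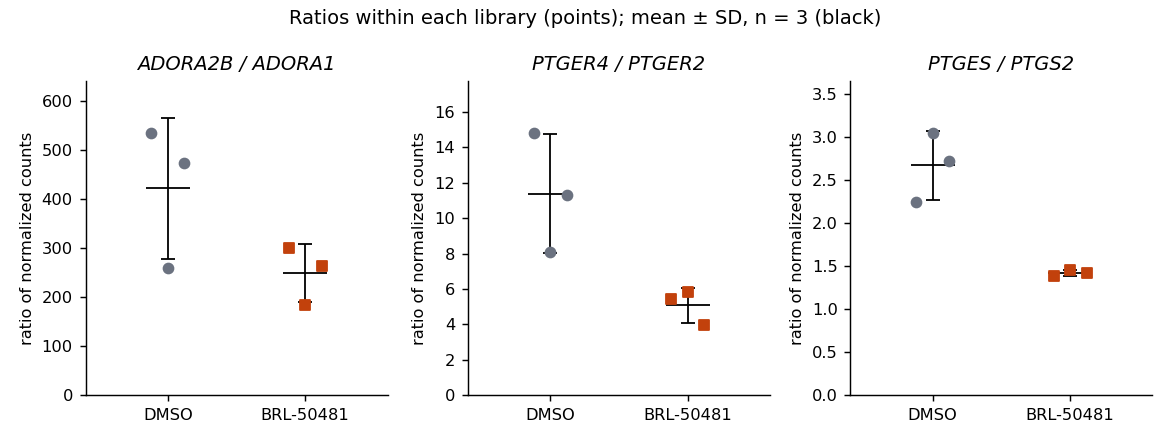
Ratio of normalized counts (vertical axes, each from 0) for 3 gene pairs in each DMSO library (grey circles) and BRL-50481 library (orange squares), with mean and SD (n = 3) in black. The PTGES to PTGS2 and PTGER4 to PTGER2 ratios are lower in each treated library than in any control, whereas the ADORA2B to ADORA1 ratios overlap.

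ADORA2B (chromosome 17, 15945130 to 15975746, plus strand, 2 exons), the gene of the Gs-coupled adenosine receptor, fell. It was at 5830.3, 6366.3 and 6285.1 normalized counts in DMSO and at 3928.2, 3900.1 and 4071.9 in BRL-50481. Every treated library was below every control and the treated values were the closer to each other, with a coefficient of variation of 2.32% against 4.69%. ADORA2B changed by −0.634 on the log2 scale (standard error 0.0506, 95% interval −0.743 to −0.525, adjusted p = 3.3e-07), a level 0.644 times that of the controls. A fall at least as large was seen for 9.33% of all genes. ISCU, an iron-sulfur cluster scaffold gene, and ATP1B3, a sodium pump subunit gene, had the most similar patterns (0.0175 and 0.0189).

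ADORA1 (chromosome 1, 203090654 to 203167405, plus strand, 4 exons), which encodes the Gi-coupled adenosine receptor, had the lowest level of the 7. Its normalized counts were 10.91, 24.49 and 13.28 in DMSO and 13.09, 21.15 and 15.51 in BRL-50481, from 11 to 25 reads a library, and the groups overlapped. The log2 fold change was 0.083 (standard error 0.363, adjusted p = 0.860). The interval of −0.700 to 0.866 covers a 1.82-fold rise and a fall to 0.615 times, so a change as large as that of ADORA2B was not detectable at this depth. A lncRNA gene overlaps its exons on the opposite strand. ENO3 and RAET1E were nearest in pattern (0.171 and 0.173). ADORA2B reads outnumbered ADORA1 reads between 260 and 534 times for DMSO and between 184 and 300 times after treatment. The log2 ratio differed by −0.717 but the groups overlapped (two-sided exact permutation test, p = 0.2).

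RGS2 (chromosome 1, 192809039 to 192812275, plus strand, 5 exons), the signal terminator among the 7, fell more than ADORA2B. It went from 402.84, 383.99 and 383.05 normalized counts in DMSO to 224.50, 203.47 and 227.78 in BRL-50481. The highest treated library lay well below the lowest control. The log2 fold change was −0.834 (standard error 0.0926, 95% interval −1.034 to −0.634, adjusted p = 5.76e-06), to 0.561 times the control level, and 5.29% of all genes fell by at least as much. RGS2 and PTGS2 lie 6.13 megabases apart on chromosome 1 and moved in opposite directions. FZD5, a Wnt receptor gene, and FTSJ3, a ribosome biogenesis gene, were most like RGS2 in pattern (0.0364 and 0.0368).

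**Figure D3:**
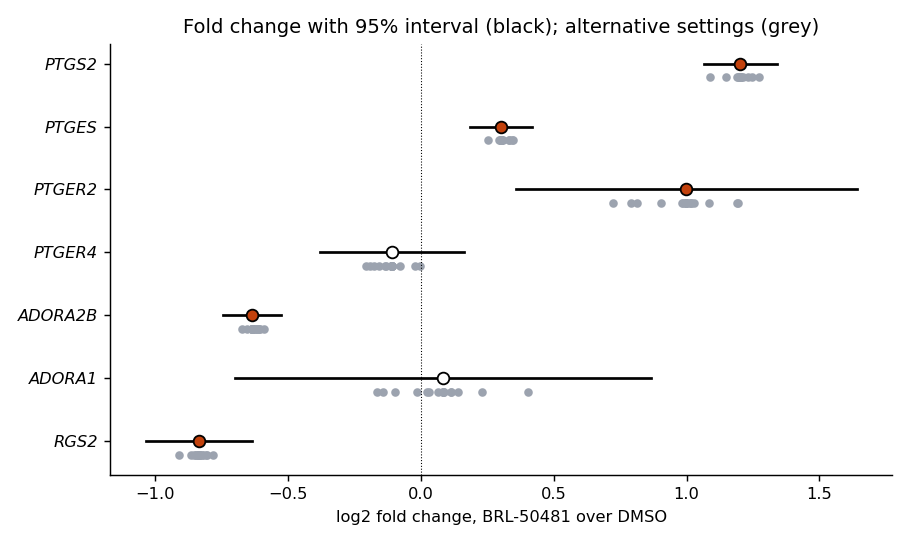
Log2 fold change of BRL-50481 over DMSO (horizontal axis) for the 7 genes, with the 95% interval in black, filled circles for genes with an adjusted p-value under 0.05, and grey points for the alternative settings. The intervals of PTGER4 and ADORA1 include 0, and the interval of PTGER2 is the widest among the genes that passed.

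Levels can be compared between genes only per length of transcript, for which reads were divided by the length of the canonical transcript in kilobases and by the reads on genes of the library (RPKM). On this RPKM scale ADORA2B led in the DMSO libraries at 124 ± 5.44 and PTGES followed at 79.1 ± 4.94 (SD, n = 3). After treatment PTGES led at 103 ± 1.04 and ADORA2B followed at 84.0 ± 1.81, so the receptor and the synthase changed places. Their ranges did not overlap in either group, between 118 and 128 against 74.0 and 83.8 for DMSO, and between 82.7 and 86.1 against 102 and 104 after treatment. PTGS2 came next at 11.6 ± 1.07 and 28.1 ± 0.414, then RGS2 at 8.86 ± 0.279 and 5.23 ± 0.313, and then PTGER4 at 2.06 ± 0.282 and 2.01 ± 0.218. PTGER2 (0.269 ± 0.0860 and 0.572 ± 0.150) and ADORA1 (0.171 ± 0.0759 and 0.184 ± 0.0460) came last. These last 2 overlapped in DMSO (0.174 to 0.341 and 0.116 to 0.258) but not after treatment (0.423 to 0.723 and 0.146 to 0.235). Every other pair of neighbours was apart in both groups.

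**Figure D4:**
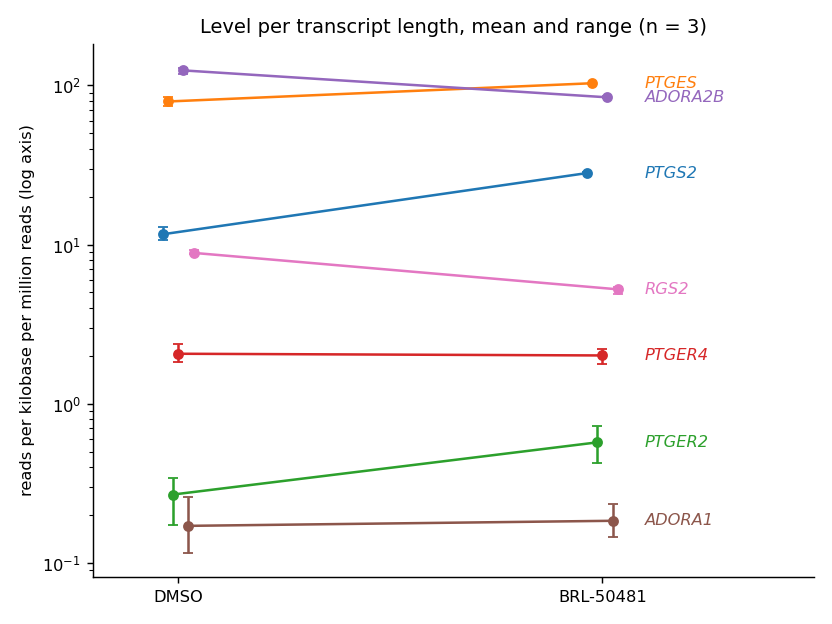
Level per length in RPKM (log axis) for the 7 genes in DMSO and BRL-50481, as the mean with the lowest and highest library (n = 3 each). ADORA2B stands above PTGES in DMSO (124 against 79.1) and below it in BRL-50481 (84.0 against 103), while the order of the other genes is the same in both groups.

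The other genes of prostaglandin synthesis, transport and breakdown moved in both directions. Of the 21 genes listed, PTGS2 and PTGES included, 17 were tested, of which 5 were higher, 7 lower and 5 not called. All genes moved in both directions too, with 28.9% higher and 29.8% lower. The median log2 fold change of the 17 was −0.171. With the highest normalized counts of the list, PTGES3 (log2 fold change −0.475), a cytosolic synthase better known as the HSP90 cochaperone p23, and AKR1B1 (−0.491), an aldose reductase that can form prostaglandin F2α, both fell. PTGES3 went from 17607.8, 18471.9 and 18955.3 normalized counts to 13857.3, 12751.9 and 12991.2, so the synthase genes PTGES and PTGES3 moved apart. PTGES2, a further synthase gene of the list named after its values were seen, also fell (log2 fold change −0.48, adjusted p = 0.00016). The constitutive cyclooxygenase gene PTGS1, named after its values were seen, rose with PTGS2 but from a far lower level. It was at 102.20, 71.51 and 119.51 normalized counts in DMSO and 151.01, 154.11 and 159.93 in BRL-50481 (log2 fold change 0.691, standard error 0.172, adjusted p = 0.00366).

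Of the 9 prostanoid receptor genes 6 were tested, and PTGER2 was the only one that passed. The share of 58.7% over all genes is not matched for level, and these 6 had low counts. PTGER4, the most abundant, had a higher mean than only 32.3% of genes. PTGER3 and PTGDR2, named after their values were seen, had at most 16 and 8 reads in a library. Their log2 fold changes were −0.737 (standard error 0.458) and −0.798 (standard error 0.649). The median log2 fold change of the 6 was −0.008. PTGFR (76.41 to 88.31 normalized counts for DMSO and 84.61 to 101.77 after treatment, log2 fold change 0.224, adjusted p = 0.219) and the thromboxane receptor gene TBXA2R (50.9 ± 4.84 and 54.6 ± 7.91, 0.093, adjusted p = 0.695) overlapped between groups. Without BRL-50481 replicate 3 the number higher was 0, and without BRL-50481 replicate 1 there was 1 lower.

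Adenosine is formed outside the cell by ectonucleotidases and taken up by nucleoside transporters. Of 19 genes for adenosine receptors and adenosine supply 16 were tested, with 5 higher, 4 lower and 7 not called. Among all genes 28.9% were higher and 29.8% lower. The median log2 fold change of the list was −0.160. NT5E, the gene of the ectonucleotidase CD73 that makes adenosine, was the most abundant and rose, from 20245.2, 19286.9 and 19616.2 normalized counts to 27535.4, 26475.8 and 26412.8 (log2 fold change 0.443, standard error 0.0433, adjusted p = 1.9e-06). The transporter gene SLC29A1 fell (−0.394, adjusted p = 7.88e-06) and AHCY, the S-adenosylhomocysteine hydrolase gene, did not pass (−0.036, adjusted p = 0.565). NT5E and ADORA2B thus moved in opposite directions. The number of higher genes was 3 without BRL-50481 replicate 1 and 3 without DMSO replicate 2. ADORA2A and ADORA3 were not analysed here.

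Among 41 other genes of Gs-coupled receptors and their accessory proteins 15 were tested, of which 5 were higher, 1 lower and 9 not called. The shares over all genes were 28.9% higher and 29.8% lower. The median log2 fold change of these 15 was 0.201. Among those with the highest counts, and in contrast to ADORA2B, increases were seen for the adhesion receptor gene ADGRG6 (log2 fold change 0.538), the serotonin receptor gene HTR7 (0.397) and the vasoactive intestinal peptide receptor gene VIPR1 (0.604). The single gene that fell, named after its values were seen, was GPR3, a receptor that signals through Gs without a known ligand. It went from 324.45, 320.32 and 348.32 normalized counts to 140.94, 178.29 and 165.75 (log2 fold change −1.035, standard error 0.112, adjusted p = 4.52e-06).

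RGS proteins shorten the signal of G protein alpha subunits. Of 21 genes listed 13 were tested, with 6 higher, 4 lower, RGS2 among them, and 3 not called. Among all genes 28.9% were higher and 29.8% lower. The median log2 fold change of the 13 was 0.262. Of the 4 with the highest mean normalized counts, RGS10 (0.295), RGS3 (0.694) and RGS12 (0.583) rose and RGS19 (−0.213, adjusted p = 0.0224) fell, a call lost with 4 of the 6 libraries left out in turn and with the length and GC correction (−0.130, adjusted p = 0.0536). RGS16, named after its values were seen, fell further than RGS2, from 695.54, 779.74 and 736.48 normalized counts to 166.11, 182.31 and 166.72 (log2 fold change −2.096, standard error 0.0889, adjusted p = 2.15e-09). Without BRL-50481 replicate 1, 2 RGS genes were lower in place of 4.

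The alpha subunit genes that pass the receptor signal on were also mixed, with 4 of 12 higher, 5 lower and 3 not called (16 listed, median log2 fold change 0.038). So were all genes, with 28.9% higher and 29.8% lower. GNAS, which encodes Gs, was by far the most abundant and fell, from 37393.6, 39641.6 and 38516.4 normalized counts to 31486.8, 32256.5 and 32459.2 (log2 fold change −0.264, standard error 0.0430, adjusted p = 0.000157). With quantile normalization GNAS was at −0.114 (adjusted p = 0.0180). The Gi gene GNAI2 rose (0.230), as did GNA13 (0.255) and GNAI3 (0.193), although, once the libraries were corrected for transcript length and GC content, GNAI3 was at −0.023 and did not pass and GNA13 was at 0.101. GNAL, the gene of the olfactory Gs relative, named after its values were seen, fell by 1.383 on the log2 scale. A further Gi gene, GNAI1, also fell (log2 fold change −0.551, adjusted p = 6.04e-06), so the Gi genes moved in both directions. GNAZ, the gene of a Gi relative, fell as well (−1.928, adjusted p = 0.000401), from 7 to 50 reads a library. GNAI1 and GNAZ were named after their values were seen.

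**Figure D5:**
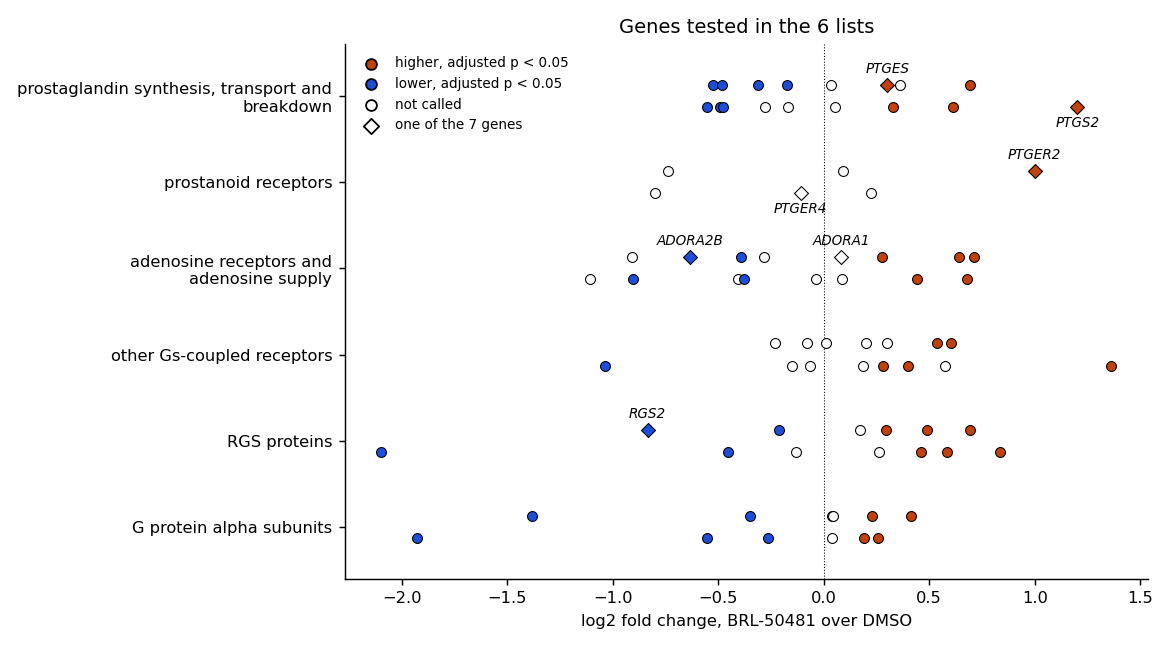
Log2 fold change of BRL-50481 over DMSO (horizontal axis) for each gene tested in the 6 lists (rows), in orange for higher and blue for lower at an adjusted p-value under 0.05 and white for not called, with diamonds for the 7 genes. Each list has genes on both sides of 0, and PTGER2 is the only coloured point among the prostanoid receptors.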

How the data were processed

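Per the labels and methods, STAR 2.7.1a was used by the authors for alignment (hg38, 76-base single-end reads), htseq-count for strand-specific counting against UCSC genes, and DESeq2 1.28 for scaling. The signal deposited by the authors for each gene and library is the read count divided by the size factor of the library. In every library 1 read equals 0.9693 to 1.0215 normalized counts and 100% of values were whole reads within 0.001, so reads were recovered for count-based alternatives. Columns with the authors' own fold changes and p-values were not used.

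A gene was tested if 3 or more libraries reached 4 normalized counts (15246 of 15651), with limma 3.58.1 in R 4.3.3 (trend, group as the only term) after adding 1 and taking log2. Adding a value tends to understate fold changes of genes with low counts (PTGER2 was at 1.017 with 0.5 added and 0.905 with 4). ADORA1 was at 0.087 with 0.5 added, 0.083 with 1 and 0.064 with 4. DESeq2, a different model fitted to the reads, gave 0.029 for ADORA1. The threshold was 0.05 after Benjamini-Hochberg adjustment. The p-values set the difference between groups against the spread between libraries. For each gene this spread was moderated with that of genes of similar level. Alternatives were other pseudocounts (0.5 and 4), other filters (none, or a mean of at least 20), quantile normalization, median centring, no trend, edgeR 4.0.16, DESeq2 1.42.0, the replicate number as a block, a loess correction for length and GC content, and leaving out each library. The procedures were tested on simulated counts with 200 changed genes and the same dispersion (excess spread) for every gene. This setting is unlike these data, in which 58.7% of genes passed. It does not show how well calls hold for genes with low counts.

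The 7 genes and the 6 lists were chosen with earlier results of these data known. Named from each list are its 4 genes with the highest mean normalized count, which is not a ranking per length, apart from a gene not reported here, and for each of the 7 genes the 2 most similar in centred log2 values. Length came from GENCODE 44 canonical transcripts (96.7% of genes matched). Figures were drawn with matplotlib 3.10.9 in Python 3.11.15.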

Additional observations from a re-analysis of the deposited data

How the results depend on the processing

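PTGS2, PTGES, ADORA2B and RGS2 kept direction and call under all 17 alternatives, with log2 fold changes of 1.089 to 1.271, 0.251 to 0.346, −0.673 to −0.590 and −0.908 to −0.783. PTGER2 ran from 0.724 to 1.195 with single libraries left out and did not pass without BRL-50481 replicate 3. ADORA1, never called, was at −0.164 with quantile normalization and at −0.144 to 0.405 with single libraries left out, and had no value under the filter at a mean of 20. PTGER4 was not called under any alternative (−0.206 to −0.003). Genes that did not pass also turned: AHCY was at 0.009 with quantile normalization and −0.064 to 0.000 with single libraries left out, and TBXA2R at −0.083 and −0.014 to 0.189. GNAI3 was at −0.023 with the length and GC correction, and the cause was not tested. Over all alternatives 3751 to 4876 genes were higher and 4027 to 5528 lower, with 4179 and 5528 under the length and GC correction. With the replicate number as a block, 4440 genes were higher and 4589 lower, against 4400 and 4546, with 3 and 2 of the 7 genes. Deviations of libraries with the same number correlated at 0.121, 0.104 and 0.051 over 12251 genes. Those of libraries with different numbers correlated at −0.159 to 0.061. The main test did not take the numbers as pairs, and the block changed no call among the 7 genes. Depth limits ADORA1 and PTGER2, with at most 25 and 57 reads in a library.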
